A study of Mus musculus with 16 samples.

Results

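Potassium channel genes are described here in mouse dorsal root ganglia (DRG), the clusters of sensory neuron cell bodies beside the spinal cord, after a crush of the sciatic nerve. The genes were chosen by name: every protein-coding mouse gene whose symbol begins with Kcn, with at least 10 counts in 4 or more libraries. Of 94 such genes in a table of 48795 genes, 84 met the count rule and 83 of those could be tested. Kcnk7 met it with 5 libraries but fell below the filter on low counts used for testing, and 5 non-coding genes with Kcn symbols were left out. The members nearest the limit were Kcnrg and Kcnk7 with 5 libraries and Kcnk9 with 6, while Kcnj13 and Kcnh4, with 3 libraries each, were the nearest outside. The other 8 genes outside the rule were Kcna7, Kcne1, Kcne2, Kcnj1, Kcnj5, Kcnk15, Kcnmb3 and Kcnv2.

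RNA was sequenced from dissociated ganglia of lumbar levels L4 to L6, in 16 libraries. The crush was made on a single side, and injured ganglia and ganglia called naive were taken from the operated animals at 24 h or 72 h, so each comparison sets the ganglia of a crushed nerve against naive ganglia collected at that time. Each of the 4 groups (naive 24 h, injured 24 h, naive 72 h and injured 72 h) has 4 libraries, and 4 mice per time are given as the replicates. The labels give no strain, sex, age or genotype, and do not say which libraries share a mouse. The ganglia also contain satellite glia, Schwann cells, vessels and blood, and the labels mention a Percoll step, so the cells measured are those left after dissociation.

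Potassium channels let potassium ions leave the cell, which sets the resting potential, ends the action potential and limits repetitive firing. Voltage-gated (Kv) channels are built from 4 pore subunits that may be joined by cytoplasmic beta subunits, Kv channel-interacting proteins (KChIPs) or single-span Kcne subunits. Calcium- and sodium-activated channels shape the after-potential, inward rectifiers hold the membrane near rest or respond to receptors and ATP, and two-pore channels carry leak current. In sensory neurons a fall of several Kv channels after nerve injury is well known and is studied in connection with neuropathic pain.

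More potassium channel genes were lower than higher in injured ganglia at both times, and more were lower at 72 h than at 24 h. At 24 h, 26 of 83 members (31.3%) were lower in injured ganglia and 7 were higher by edgeR's quasi-likelihood test with Benjamini-Hochberg adjusted p under 0.05, while 8.31% of the 19151 genes tested were lower and 10.7% were higher. At 72 h, 42 members (50.6%) were lower and 6 were higher, against 13.5% and 14.4% of all tested genes. The median log2 fold change over the members was −0.18 at 24 h and −0.49 at 72 h, and over all tested genes it was −0.008 and −0.007. The share of all counts that fell on potassium channel genes was 0.522% to 0.556% in naive and 0.454% to 0.471% in injured libraries at 24 h. At 72 h it was 0.544% to 0.555% in naive and 0.354% to 0.391% in injured libraries, so the groups did not overlap at either time. In bulk RNA, fewer cells of a type and less RNA per cell cannot be told apart.

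**Figure D1:**
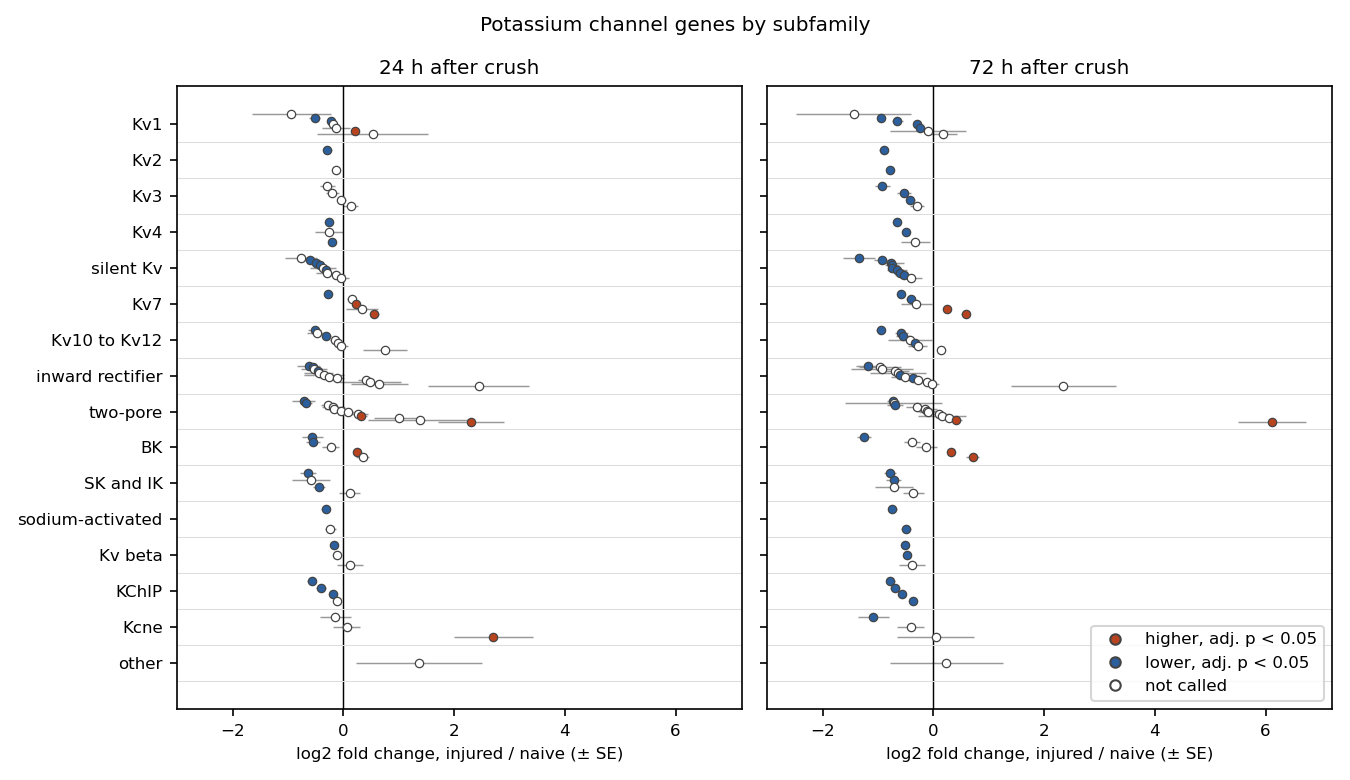
Log2 fold change (injured over naive, ± SE) of each tested potassium channel gene at 24 h (left) and 72 h (right), one point per gene, ordered within its subfamily; filled points passed the adjusted p threshold. At 72 h 42 points are called lower and 6 higher, and the point at 6.12 is Kcnk16.

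The response had a small number of shapes. Of the 83 genes, 24 were called lower at both times, 17 were called lower at 72 h and not called at 24 h, and Kcnmb2 and Kcnk2 were called lower at 24 h and not at 72 h. Kcnma1, Kcnk10, Kcnk16 and Kcnq3 were among the members called higher at both times, and Kcnmb4 was called higher at 72 h and Kcne3 at 24 h. Kcna1 had opposite calls, and 32 genes were called at neither time. Every injured library lay below every naive library for 23 members at 24 h and 43 at 72 h, against 8.48% and 15% of all tested genes. The reverse held for 6 members at 24 h and 7 at 72 h, against 10% and 16.3% of all tested genes. Falls were mostly partial. Of the 42 members called lower at 72 h, 32 fell by at least 0.5 on the log2 scale. Of these, 4 (Kcng1, Kcnmb1, Kcnj11 and Kcne1l) fell by at least 1.

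Levels between genes were compared per kilobase of exon, as CPM (the count relative to a library size scaled by TMM) per kb averaged over the 8 naive libraries. Kcnab2, the beta subunit Kvβ2, was highest at 218 ± 9.89 CPM per kb (SD, n = 8), and held 22.7% of all counts on members. The KChIPs Kcnip3 (109 ± 5.82) and Kcnip4 (92.0 ± 6.11) followed in CPM per kb. Then came the two-pore gene Kcnk1 (36.7 ± 6.45) and the Kv1 gene Kcna1 (36.3 ± 1.74), whose levels did not differ beyond their spread, and Kcna2 (28.3 ± 0.541). Kcns1 (26.1 ± 3.44), Kcnip2 (26.0 ± 2.24) and Kcns3 (25.9 ± 2.18) also lay within each other's spread. The most abundant pore-forming and accessory genes were thus mostly Kv subunits and their partners. Of the 21 tested members with a mean over all 16 libraries of at least 10 CPM per kb, 21 were called lower at 72 h. At 24 h, 13 of these were called lower and 1 higher. Among the 39 members between 1 and 10 CPM per kb, 20 were called lower and 5 higher at 72 h. Among the 23 members under 1 CPM per kb, 1 was called lower and 1 higher at 72 h. Of all tested genes, whatever their level, 13.5% were lower at 72 h. Shares of all tested genes at like levels were not computed, and a change is easier to call where its error is small. Errors were larger among the low genes, up to an SE of 1.04 for Kcna10 at 72 h.

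**Figure D2:**
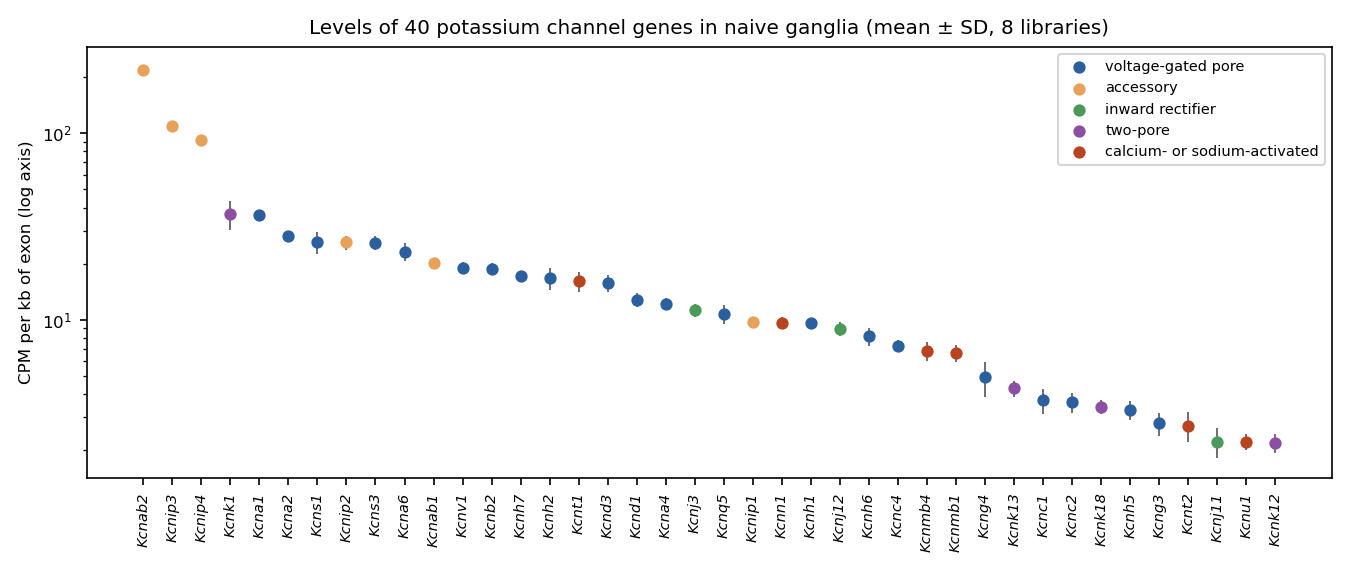
Mean CPM per kb of exon (log axis, ± SD over 8 naive libraries) of 40 potassium channel genes with high levels, coloured by class. Kcnab2 at 218, Kcnip3 at 109 and Kcnip4 at 92.0 stand above all other genes drawn.

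Promoter sequences are shown for 4 members, as RefSeq gives them for GRCm38.p6: Kcnk16, the largest rise, Kcnh7, among the best supported falls, Kcnh6, whose window was the single member window with both parts of the REST recognition element, and Kcnip3, which holds an AP-1 site. REST is a repressor of neuronal genes that has been linked to potassium channel loss after nerve injury, and AP-1 is the dimer of Fos and Jun proteins. Each stretch ends where the annotated gene begins or, for Kcnk16, at the last base before the RefSeq start, and is written on the strand of its gene. Kcnk16 is on the minus strand at chr14:20269270-20269519, Kcnh7 on the minus strand at chr2:63184288-63184537, Kcnh6 on the plus strand at chr11:106007898-106008123 and Kcnip3 on the minus strand at chr2:127522095-127522344. Capitals mark the letters found: CAGCACC and GGACAGC in Kcnh6, and GGACAGC and TGACTCA in Kcnip3.
Kcnk16: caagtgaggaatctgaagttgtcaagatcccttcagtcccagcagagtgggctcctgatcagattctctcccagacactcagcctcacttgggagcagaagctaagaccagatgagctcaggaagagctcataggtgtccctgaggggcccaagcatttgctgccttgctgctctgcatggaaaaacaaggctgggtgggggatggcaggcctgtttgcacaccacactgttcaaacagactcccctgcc
Kcnh7: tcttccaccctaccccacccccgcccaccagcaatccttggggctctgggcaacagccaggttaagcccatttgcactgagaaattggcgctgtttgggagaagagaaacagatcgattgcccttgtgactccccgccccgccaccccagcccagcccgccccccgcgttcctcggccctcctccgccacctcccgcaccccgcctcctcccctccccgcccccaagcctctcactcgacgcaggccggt
Kcnh6: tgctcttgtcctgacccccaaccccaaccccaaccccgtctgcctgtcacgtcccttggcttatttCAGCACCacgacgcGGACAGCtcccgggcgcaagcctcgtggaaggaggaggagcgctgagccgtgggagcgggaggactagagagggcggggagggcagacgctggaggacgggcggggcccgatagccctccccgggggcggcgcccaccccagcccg
Kcnip3: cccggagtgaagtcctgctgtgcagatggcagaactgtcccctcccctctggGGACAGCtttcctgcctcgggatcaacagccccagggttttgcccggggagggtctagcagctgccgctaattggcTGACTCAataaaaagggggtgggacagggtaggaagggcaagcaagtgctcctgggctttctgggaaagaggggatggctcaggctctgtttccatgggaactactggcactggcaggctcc

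Of the 84 members, 61 had a RefSeq promoter entry, with 85 windows of 300 bases in all, and motifs were searched on both strands. The REST part CAGCACC was in 10 member windows (11.8%) and in 7.14% of all 32851 promoters, and the part GGACAGC in 11 (12.9%) and 6.56%. Both parts were in 1 member window (1.18%), that of Kcnh6, with 7 bases between them, and in 0.575% of all promoters; Kcnq5 held the parts in separate windows. Of the 10 members with CAGCACC, 6 were called lower at 72 h and 0 higher; of the 11 with GGACAGC, 5 were called lower and 1 higher. These counts lie near the 50.6% of all tested members called lower. The AP-1 site TGANTCA was in 4 member windows (4.71%; Kcne3, Kcnip3, Kcnip4 and Kcnk2) and in 7.81% of all promoters. The cyclic AMP response element TGACGTCA was in 0 member windows and in 1.79% of all promoters. The windows of Kcnk16 and Kcnh7 held none of these letters. A match is a description of the sequence only, and binding was not measured.

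Among the Kv1 genes, which form low-threshold channels along axons, 4 of 7 fell at 72 h and none rose. At that time 13.5% of all tested genes were lower and 14.4% higher. Kcna2 (Kv1.2; ENSMUSG00000040724, chromosome 3, 107101146 to 107115005) was at 335, 333, 339 and 339 CPM in naive and 318, 296, 255 and 278 CPM in injured libraries at 24 h. At 72 h it was at 332, 334, 351 and 332 CPM in naive and 175, 154, 183 and 187 CPM in injured libraries. All injured libraries lay below all naive ones at both times. The log2 fold change was −0.23 (SE 0.06, edgeR adjusted p = 0.0102) at 24 h and −0.95 (SE 0.06, adjusted p = 4.16e-11) at 72 h, when it fell by 48.2%. The difference between the times was −0.72 (SE 0.09, adjusted p = 1.61e-05).

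Kcna1 (Kv1.1), which assembles with Kv1.2, moved both ways. It was at 178, 168, 177 and 163 CPM in naive and 203, 208, 178 and 205 CPM in injured libraries at 24 h, where the lowest injured library touched the naive range. By 72 h it was at 162, 176, 184 and 180 CPM in naive and 130, 142, 148 and 149 CPM in injured libraries, with no overlap. The log2 fold change was 0.21 (SE 0.06, adjusted p = 0.0116) at 24 h and −0.30 (SE 0.06, adjusted p = 0.000288) at 72 h, and the difference was −0.52 (SE 0.08, adjusted p = 0.000342). Without injured replicate 2 the 24 h adjusted p was 0.0518. Kcna1 was thus above naive on the first day and below it on the third.

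Kcna4 (Kv1.4), the rapidly inactivating Kv1 subunit of small-diameter sensory neurons, was already low at 24 h. It was at 62.4, 55.4, 55.0 and 52.0 CPM in naive and 43.7, 35.4, 42.7 and 35.5 CPM in injured libraries at 24 h, and at 65.2, 60, 59.6 and 62.7 CPM against 44.7, 33.4, 33.3 and 46.7 CPM at 72 h. No injured library reached a naive one. Its log2 fold change was −0.52 (SE 0.10) at 24 h and −0.65 (SE 0.10) at 72 h. Kcna6 (Kv1.6) fell by 0.25 (SE 0.07) at 72 h, and 39.6% of its exon length is shared with the antisense gene Gm26673. Kcna3, Kcna5 and Kcna10 were not called at either time and were all under 1 CPM per kb. Kcna3, Kcna2 and Kcna10 neighbour each other on chromosome 3, and Kcna5, Kcna1 and Kcna6 on chromosome 6. The calls differed between neighbours, but no contrast between neighbours was tested. At 72 h the uncalled genes had larger errors: −1.44 (SE 1.04) for Kcna10, −0.10 (SE 0.69) for Kcna3 and 0.17 (SE 0.25) for Kcna5.

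Kcnb2 (Kv2.2), a pore subunit of the Kv2 family, which carries most delayed-rectifier current in many neurons, fell at 72 h. It overlapped at 24 h, with 271, 273, 310 and 261 CPM in naive and 270, 256, 250 and 235 CPM in injured libraries. At the later time it was at 287, 320, 274 and 270 CPM in naive and 161, 146, 172 and 187 CPM in injured libraries, which did not overlap. The log2 fold change was −0.14 (SE 0.07, adjusted p = 0.187) and then −0.79 (SE 0.07, adjusted p = 8.79e-09). The difference between the times was −0.65 (SE 0.10) and was called.

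The electrically silent Kv subunits, which form no channel alone and modify Kv2 channels, were mostly lower at 72 h. Of 9, 8 were called lower at 72 h and 4 at 24 h, against 13.5% and 8.31% of all tested genes. Kcns3 (Kv9.3) was at 68.9, 78.8, 79.8 and 78.4 CPM in naive and 64.7, 55.5, 57.0 and 51.7 CPM in injured libraries at 24 h. At 72 h it was at 88.9, 84.7, 85.4 and 90.3 CPM against 51.9, 45.4, 53.5 and 56.8 CPM, and its log2 fold change went from −0.42 (SE 0.07) to −0.75 (SE 0.07). Both comparisons separated the groups fully.

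Kcns1 (Kv9.1), a subunit of sensory neurons whose human variants have been studied in pain, was at 65.1, 88.6, 75.1 and 72.6 CPM in naive and 43.4, 56.1, 53.8 and 61.4 CPM in injured libraries at 24 h. By 72 h it was at 62.0, 58.4, 70.9 and 73.6 CPM against 36.8, 30.8, 42.7 and 47.6 CPM. The groups did not overlap, and the log2 fold changes were −0.49 (SE 0.12) and −0.75 (SE 0.12). Kcnv1 (Kv8.1) was at 76.4, 84.5, 92.5 and 85.8 CPM against 70.2, 64.7, 72.0 and 65.3 CPM at 24 h, and at 90.4, 96.8, 79.7 and 89.7 CPM against 56.7, 56.8, 55.7 and 63.6 CPM at 72 h. It too was lower in every injured library, by 0.32 and then 0.61 on the log2 scale (SE 0.07 at both times). At 72 h Kcng1 was at −1.35 (SE 0.29), Kcng3 at −0.92 (SE 0.16), Kcng2 at −0.76 (SE 0.23), Kcnf1 at −0.65 (SE 0.18) and Kcng4 at −0.54 (SE 0.15). Kcng2 lost its call at 72 h without injured replicate 2 or 3, with adjusted p up to 0.0601. Kcns2 was not called, at −0.41 (SE 0.20).

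The Kv3 genes encode fast high-threshold channels, and the Kv4 genes rapidly inactivating A-type channels. Kcnc4 (Kv3.4) was at 22.8, 26.5, 28 and 25.2 CPM in naive and 24.0, 25.9, 25.9 and 23.6 CPM in injured libraries at 24 h, which overlapped. In the 72 h libraries it was at 26.1, 28.6, 27.3 and 28.1 CPM against 20.8, 19.1, 20.4 and 21.7 CPM, a log2 fold change of −0.42 (SE 0.08). Kcnc1 fell at 72 h by 0.53 (SE 0.13).

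Of the 3 Kv4 genes, Kcnd1 and Kcnd3 were lower at both times and Kcnd2, at 0.483 CPM per kb, at neither. Kcnd3 (Kv4.3) was at 135, 128, 149 and 136 CPM in naive and 125, 119, 120 and 113 CPM in injured libraries at 24 h, and at 164, 172, 164 and 153 CPM against 124, 110, 105 and 123 CPM at 72 h. Injured libraries were below naive ones at both times, with log2 fold changes of −0.20 (SE 0.06) and −0.50 (SE 0.06). Its naive libraries also differed between the times, as given further on. Kcnd1 fell by 0.26 (SE 0.07) and 0.66 (SE 0.07).

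Genes of the Kv7 family were called in both directions. Kcnq3, a subunit of the M-channel that damps repetitive firing, rose at both times, while Kcnq5 fell at both. Kcnq3 (ENSMUSG00000056258, chromosome 15, 65986387 to 66286642) was at 24.7, 25.9, 21.2 and 22.9 CPM in naive and 37.3, 35.8, 32.1 and 34.7 CPM in injured libraries at 24 h. At the later time it was at 28.1, 28.1, 30.7 and 27.9 CPM against 40.3, 46.0, 46.8 and 38.5 CPM. Every injured library was above every naive one, with log2 fold changes of 0.56 (SE 0.08, adjusted p = 2.18e-05) and 0.58 (SE 0.08, adjusted p = 6.55e-06), a rise of 47.5% and 49.4%. Kcnq5 fell by 0.27 (SE 0.07) and 0.59 (SE 0.07). Kcnq1, at 0.315 CPM per kb, was not called.

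In the Kv10 to Kv12 group (the eag, erg and elk channels), 4 of 7 genes were lower at 72 h and 2 at 24 h. The shares of all tested genes called lower were 13.5% and 8.31%. Kcnh7 (erg3; ENSMUSG00000059742, chromosome 2, 62693414 to 63184287) was at 252, 264, 261 and 242 CPM in naive and 255, 207, 190 and 170 CPM in injured libraries at 24 h, where injured replicate 1 lay within the naive range. By 72 h it was at 252, 292, 258 and 256 CPM against 134, 132, 131 and 149 CPM, far below. The log2 fold change was −0.31 (SE 0.08) and −0.95 (SE 0.08, adjusted p = 6.16e-09), and the difference was −0.65 (SE 0.12). Kcnh6 (erg2), with both REST parts in the window printed, fell to a like extent at both times, by 0.52 and 0.55 (SE 0.12 for both). Kcnh2 (erg1) fell by 0.34 (SE 0.09) and Kcnh5 by 0.58 (SE 0.12) at 72 h. Kcnh1, Kcnh3 and Kcnh8 were not called.

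**Figure D3:**
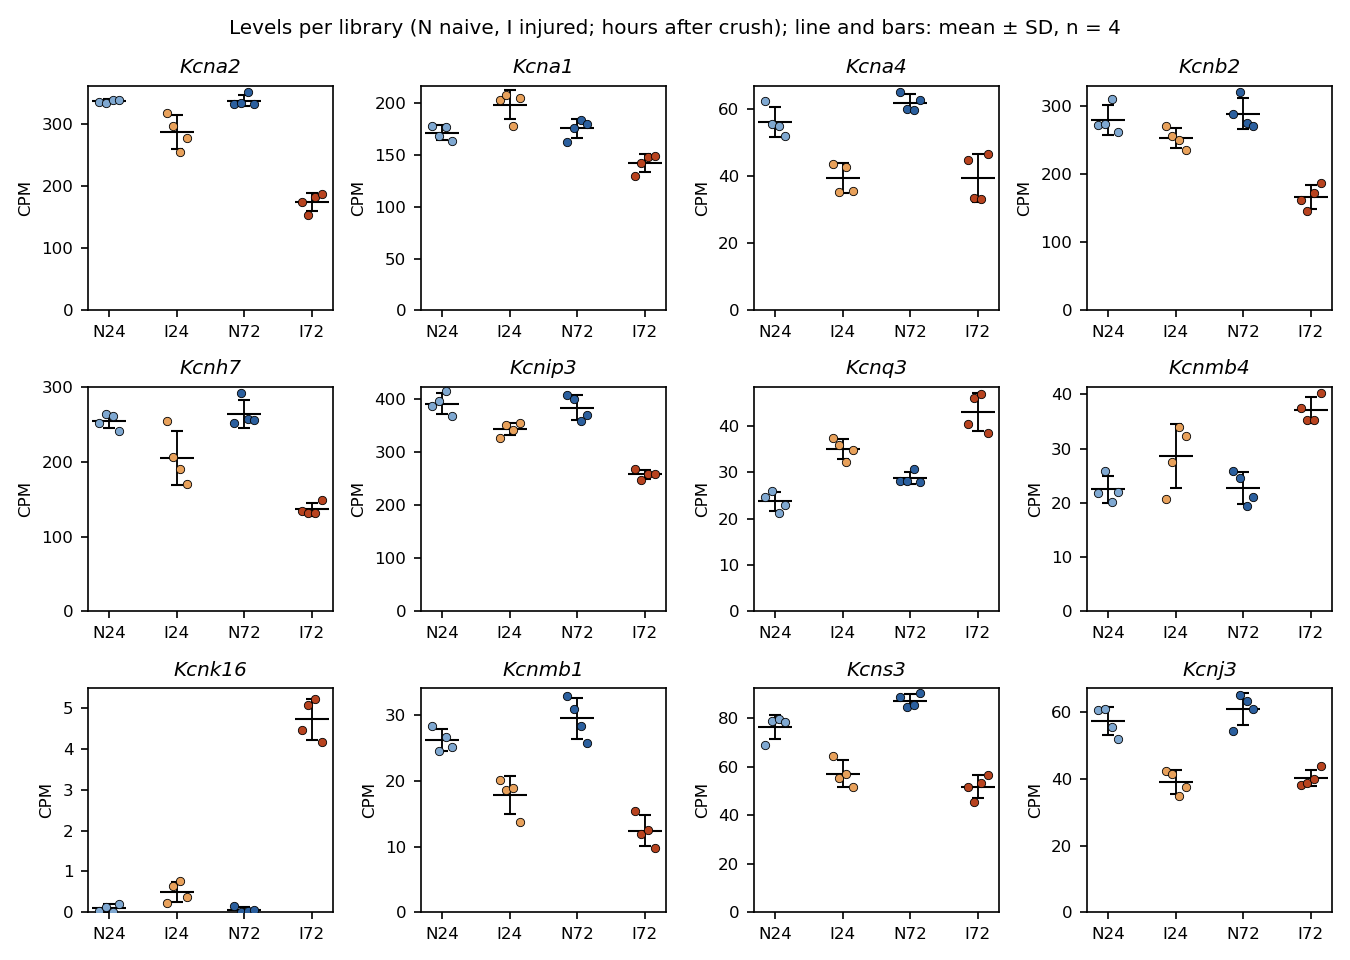
CPM in each library for 12 members (points; line and bars are mean ± SD, n = 4 per group; N naive, I injured, with hours after crush). Kcna2, Kcna4, Kcnb2, Kcnh7, Kcnip3, Kcnmb1, Kcns3 and Kcnj3 are lower in all injured libraries at 72 h, Kcnq3, Kcnmb4 and Kcnk16 are higher, and Kcna1 is higher at 24 h (with 1 overlapping library) and lower at 72 h.

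Of the 11 tested accessory subunits of Kv channels, 4 were lower and 1 higher at 24 h, and 7 were lower at 72 h. Among all tested genes, 8.31% were lower and 10.7% higher at 24 h, and 13.5% were lower at 72 h. Kcnab2 was at 1183, 1265, 1291 and 1258 CPM in naive and 1038, 1124, 1131 and 1144 CPM in injured libraries at 24 h, and at 1256, 1189, 1146 and 1160 CPM against 876, 778, 833 and 824 CPM at 72 h. The groups were separate at both times, with log2 fold changes of −0.17 (SE 0.05) and −0.52 (SE 0.05). Kcnab1 fell at 72 h by 0.47 (SE 0.06), and Kcnab3, under 1 CPM per kb, was not called.

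All 4 KChIPs, calcium-binding proteins that bring Kv4 channels to the membrane, were lower at 72 h and 3 at 24 h. Lower calls over all tested genes were 13.5% at 72 h and 8.31% at 24 h. Kcnip3, also known as the calcium-dependent repressor DREAM, was at 388, 397, 415 and 368 CPM in naive and 328, 351, 342 and 355 CPM in injured libraries at 24 h. In the 72 h libraries it was at 409, 400, 359 and 370 CPM against 268, 248, 259 and 259 CPM, and its log2 fold change went from −0.19 (SE 0.05) to −0.57 (SE 0.05). Kcnip1 was at 59.0, 62.1, 66.2 and 63.7 CPM against 41.7, 46.2, 38.3 and 42.5 CPM at 24 h, and at 58.3, 56.2, 53.7 and 62.2 CPM against 35.4, 33.8, 28.3 and 36.3 CPM at 72 h. For both genes the groups did not overlap. Kcnip1 had the smallest adjusted p of any member at 24 h (edgeR, 7.43e-06), with a log2 fold change of −0.57 (SE 0.08), and was at −0.78 (SE 0.08) at 72 h.

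Kcnip2 was at 78.1, 83.1, 98.5 and 101 CPM in naive and 65.0, 65.8, 80.2 and 59.7 CPM in injured libraries at 24 h, so that 1 injured library lay inside the naive range. At the later time it was at 93.4, 94.1, 85.4 and 88.9 CPM against 61.1, 49.2, 53.1 and 59.1 CPM, and the groups separated. It fell by 0.41 and 0.70 on the log2 scale (SE 0.09 at both times), and Kcnip4 fell by 0.37 (SE 0.07) at 72 h. Among the 3 tested Kcne genes, Kcne1l (Kcne5) was at 2.52, 2.32, 2.67 and 2.90 CPM in naive and 1.06, 0.943, 1.47 and 1.41 CPM in injured libraries at 72 h, and at 2.92, 1.20, 2.63 and 1.75 CPM against 1.83, 1.23, 2.22 and 2.38 CPM at 24 h. The groups overlapped at 24 h and not at 72 h, when the log2 fold change was −1.09 (SE 0.28). Kcne3 held 1, 3, 15 and 10 counts in naive and 16, 58, 21 and 76 in injured libraries at 24 h. Summed over libraries these were 29 and 171, a ratio of 7.32 per scaled library size (95% exact counting interval 4.92 to 11.3). The interval leaves out the spread between libraries. At 72 h Kcne3 held 67 counts in naive and 59 in injured libraries. Its fitted log2 fold change was 2.71 (SE 0.72) at 24 h and 0.04 (SE 0.69) at 72 h, but the difference of −2.67 (SE 0.99, adjusted p = 0.125) was not called.

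Kcnrg, named for a regulator of Kv channels, had 0 to 18 counts per library. In CPM it was at 0.00, 0.212, 0.00 and 0.00 in naive and 0.197, 0.00, 0.308 and 0.121 in injured libraries at 24 h. At 72 h the CPM values were 0.163, 0.171, 0.178 and 0.249 in naive and 0.0259, 0.328, 0.464 and 0.0842 in injured libraries. No difference was detectable at this depth, and its exons lie inside the gene Dleu2 on the opposite strand.

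Of the 12 inward rectifiers, 3 were lower at both times and none was called higher by edgeR (2 were higher at 24 h and 1 at 72 h at an unadjusted p under 0.05). Lower calls were 25% of these 12 genes at each time, against 8.31% (24 h) and 13.5% (72 h) of all tested genes. Kcnj3 (Kir3.1), the pore subunit of channels opened by Gi-coupled receptors, was at 60.5, 61.0, 55.6 and 52.0 CPM in naive and 42.4, 41.3, 34.9 and 37.5 CPM in injured libraries at 24 h. At 72 h it was at 54.3, 65.1, 63.4 and 60.8 CPM against 38.2, 38.8, 40 and 43.7 CPM, and the groups were apart at both times. The log2 fold changes, −0.55 (SE 0.08) and −0.60 (SE 0.08), were of like size, and 31.1% of its exon length is shared with the antisense gene Gm26794, which held 187 counts over all libraries. Kcnj12 (Kir2.2) was at 20, 25.2, 25.4 and 24.4 CPM against 16.4, 17.9, 15.7 and 19.3 CPM at 24 h, and at 25.5, 24.2, 24.1 and 27.6 CPM against 19.2, 18.9, 21.1 and 19.6 CPM at 72 h. It fell by 0.46 and 0.36 (SE 0.09 at both times) without overlap.

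Kcnj11 (Kir6.2), the pore of ATP-sensitive channels, fell by 0.63 (SE 0.21) and 1.18 (SE 0.22). Kcnj10 (Kir4.1), the main inward rectifier of satellite glia, had log2 fold changes of 0.41 (SE 0.15) at 24 h and −0.11 (SE 0.15) at 72 h, neither called. Kcnj15 held 22 counts in naive and 90 in injured libraries at 24 h, and 13 and 65 at 72 h; all injured libraries were above all naive ones at both times, but its adjusted p was 0.0631 and 0.0706. The other 7 members of the group were not called at either time.

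Of the 12 two-pore genes, 2 were lower and 2 higher at each time (16.7% each way, against 8.31% lower and 10.7% higher of all tested genes at 24 h and 13.5% and 14.4% at 72 h), and the median log2 fold change was 0.02 at 24 h and −0.11 at 72 h. Kcnk16 (TALK-1; ENSMUSG00000023387, chromosome 14, 20261376 to 20269199), a channel opened by alkaline pH and known from pancreatic islets, had the largest rise of any member. It held 2, 8, 0 and 9 counts in naive and 8, 27, 25 and 16 in injured libraries at 24 h. At 72 h the counts were 7, 0, 1 and 4 in naive and 172, 247, 202 and 197 in injured libraries. In CPM, the injured libraries at 72 h were at 4.46, 5.06, 5.21 and 4.15. Kcnk16 is the member that reached 10 counts in injured libraries only. Summed over libraries, the ratio of injured to naive per scaled library size was 4.96 (95% exact counting interval 2.97 to 8.69) at 24 h and 72.7 (41.4 to 141) at 72 h. The fitted log2 fold change was 2.30 (SE 0.60, adjusted p = 0.00797) at 24 h and 6.12 (SE 0.61, adjusted p = 4.5e-08) at 72 h, values that depend on the prior count. The difference was 3.83 (SE 0.91, adjusted p = 0.0112), and without naive 24 h replicate 4 it was 3.26 with adjusted p = 0.0596. Kcnk5, its neighbour on chromosome 14 at 79566 bases, was at −0.18 (SE 0.21) and −0.30 (SE 0.20), not called.

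Kcnk18 (TRESK), a background channel of sensory neurons, was at 11.9, 12.2, 11.1 and 13.3 CPM in naive and 7.47, 7.18, 8.97 and 6.79 CPM in injured libraries at 24 h. By 72 h it was at 12.9, 11.6, 11.7 and 10.1 CPM against 7.76, 6.64, 6.83 and 6.59 CPM. The groups were apart at both times, and the fall was of like size at both times, with log2 fold changes of −0.67 (SE 0.11) and −0.73 (SE 0.11) and a difference of −0.06 (SE 0.16, adjusted p = 0.916). Kcnk1 (TWIK-1) was at 77.1, 102, 83.8 and 92.6 CPM against 69.1, 73.0, 67.1 and 85.7 CPM at 24 h, which overlapped. In the 72 h libraries it was at 61.5, 62.9, 83.2 and 93.7 CPM against 40.5, 36.0, 55.0 and 54.9 CPM, a log2 fold change of −0.69 (SE 0.14). Among the mechanically gated channels, Kcnk10 (TREK-2) rose by 0.32 (SE 0.11) and 0.41 (SE 0.11), while Kcnk2 (TREK-1) fell by 0.72 (SE 0.21) at 24 h and was at −0.15 (SE 0.21) at 72 h. Kcnk4 (TRAAK) was at −0.04 and −0.12 (SE 0.17 at both times), not called.

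Among the genes of the calcium-activated BK channel, the pore gene and a neuronal beta subunit rose. Kcnma1, the pore, rose by 0.25 (SE 0.07) at 24 h and 0.32 (SE 0.07) at 72 h. Kcnmb4, the beta4 subunit of neurons, was at 21.8, 25.9, 20.2 and 22.0 CPM in naive and 20.7, 27.5, 33.9 and 32.3 CPM in injured libraries at 24 h, with overlap. At the later time it was at 25.9, 24.6, 19.5 and 21 CPM against 37.5, 35.2, 35.3 and 40.3 CPM, without overlap. Its log2 fold change was 0.35 (SE 0.12, adjusted p = 0.051) and then 0.71 (SE 0.12, adjusted p = 8.74e-05), a rise of 63.0%.

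Kcnmb1, the beta1 subunit best known from smooth muscle, fell. It was at 28.3, 24.6, 26.7 and 25.2 CPM in naive and 20.2, 18.7, 18.9 and 13.7 CPM in injured libraries at 24 h, and at 33.0, 30.9, 28.4 and 25.8 CPM against 15.5, 11.9, 12.5 and 9.83 CPM at 72 h. No injured library reached a naive one, and the log2 fold changes were −0.55 (SE 0.12) and −1.25 (SE 0.13, adjusted p = 4.39e-08). The exons of Kcnmb1 lie wholly (100%) inside the body of Kcnip1, on the opposite strand and with 0 shared exon bases, and no strand setting of the counting is given, so reads of the 2 genes may not be separate. Of 9 markers of smooth muscle and pericytes, 2 were called lower and 0 higher at 72 h, and their summed level was 283 to 320 CPM in naive and 243 to 274 CPM in injured libraries; the part of these cells in the fall of Kcnmb1 was not tested. Kcnmb2 fell by 0.56 (SE 0.19) at 24 h and was at −0.13 (SE 0.19) at 72 h, and Kcnu1 was not called.

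Of the 4 small- and intermediate-conductance channel genes, 2 were lower at both times. Over all tested genes, 8.31% were lower at 24 h and 13.5% at 72 h. Kcnn1 (SK1), which carries part of the after-hyperpolarization, was at 45.5, 41.2, 46.5 and 47.6 CPM in naive and 38.3, 31.5, 35.6 and 28.1 CPM in injured libraries at 24 h. At 72 h it was at 49.6, 43.4, 40.8 and 40.4 CPM against 32.4, 21, 23.3 and 24.6 CPM, with log2 fold changes of −0.44 (SE 0.11) and −0.78 (SE 0.11). Kcnn2 (SK2) was at 9.98, 13.5, 12.6 and 9.30 CPM against 6.88, 6.33, 8.78 and 7.13 CPM at 24 h, and at 15.4, 16.6, 13.6 and 13.8 CPM against 10.7, 8.18, 7.97 and 9.30 CPM at 72 h. Both were lower in every injured library, and Kcnn2 had log2 fold changes of −0.64 (SE 0.14) and −0.72 (SE 0.13). Kcnn3 and Kcnn4 were not called.

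Kcnt1 (Slack), a sodium-activated channel that limits firing of sensory neurons, was at 125, 130, 145 and 151 CPM in naive and 103, 114, 128 and 96.6 CPM in injured libraries at 24 h, with slight overlap. By 72 h it was at 173, 165, 177 and 159 CPM against 111, 97.8, 96.8 and 97.3 CPM. It fell by 0.32 and 0.74 (SE 0.08 at both times). Kcnt2 (Slick) was at 16.6, 14.7, 14.9 and 17.7 CPM against 13.3, 12.5, 13.4 and 14.8 CPM at 24 h, and at 20.5, 24.2, 22.1 and 18.9 CPM against 15.3, 14.2, 16.2 and 15.2 CPM at 72 h. Its log2 fold change was −0.24 (SE 0.10, not called) and −0.49 (SE 0.09).

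The responses at the 2 times were compared directly as the 72 h minus the 24 h log2 fold change. The difference was called lower for 16 members (3.44% of all tested genes were) and higher for 1, Kcnk16 (2.86% of all tested genes were). Its median over members was −0.30 and over all tested genes −0.003, and 66 of 83 members had the lower value at 72 h. The share of all tested genes with the lower value at 72 h was not computed. Among the 16 called lower were Kcna1, Kcna2, Kcnab1, Kcnab2, Kcnb2, Kcnc4, Kcnd1, Kcnd3, Kcng3, Kcnh7, Kcnip3, Kcnmb1 and Kcnt1. Of the 16, 11 encode voltage-gated pores, as do 37 of the 83 tested members, and no contrast between classes was tested. Kcnc4, Kcnd3 and Kcng3 lost the call under 12, 11 and 12 of 22 alternatives, with adjusted p up to 0.103. For Kcnd3 and Kcnt1 the naive levels were themselves higher at 72 h, by 0.25 (SE 0.06) and 0.29 (SE 0.08). Mean injured levels at 24 h and 72 h were 119 and 116 CPM for Kcnd3, and 111 and 101 CPM for Kcnt1. For Kcnj3, Kcnj12, Kcnk18, Kcnh6, Kcna4, Kcnn2 and Kcnq3 the difference lay within −0.13 to 0.09 and was not called, though this does not show that their responses were equal.

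**Figure D4:**
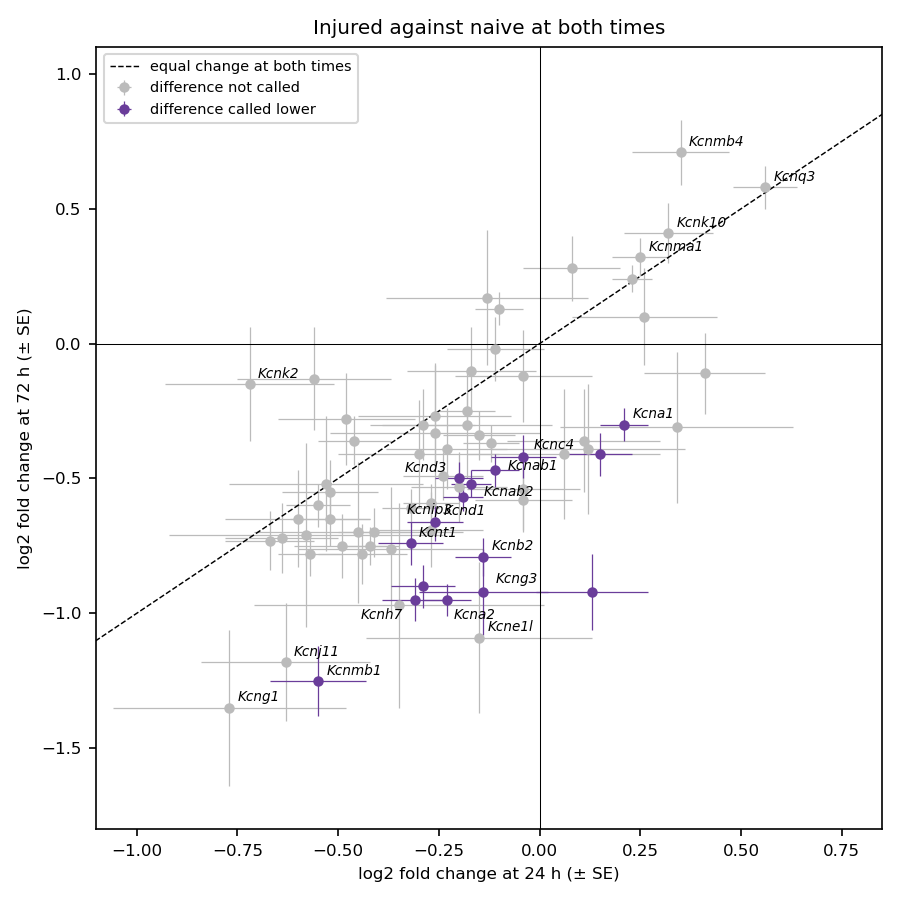
Log2 fold change (injured over naive) at 24 h (horizontal) and 72 h (vertical), ± SE, for the 72 tested members whose SE was under 0.4 at both times, which leaves out Kcnk16. Purple points are members whose 72 h value was called below the 24 h value, and lie under the dashed line of equal change.

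The 24 h calls rested on smaller changes and were less stable. Of 33 members called at 24 h, 23 kept the call under every alternative run, as did 47 of 48 at 72 h. Among the 10 that lost it under at least 1 alternative were Kcna1, Kcnab2, Kcnd3, Kcnf1, Kcnj11, Kcnk10, Kcnk2, Kcnma1 and Kcnmb2. Without a single library, the adjusted p of Kcnab2 reached 0.0507 (naive replicate 3). Over all alternatives it reached 0.0848 for Kcnd3, 0.0989 for Kcnf1, 0.126 for Kcnj11, 0.101 for Kcnk2, 0.0645 for Kcnma1 and 0.145 for Kcnmb2. Kcnk10 lost its call under 14 of 23 alternatives, with adjusted p up to 0.176.

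Naive ganglia collected at 72 h and at 24 h were also compared. Of 83 members, 3 (3.61%) were higher at 72 h and 0 lower by edgeR, against 1.61% and 0.731% of all tested genes. The 3 were Kcnt2 (log2 difference 0.42, SE 0.09, adjusted p = 0.019), Kcnt1 (0.29, SE 0.08, adjusted p = 0.0412) and Kcnd3 (0.25, SE 0.06, adjusted p = 0.0253), and each lost its call without some single library (adjusted p up to 0.118). At an unadjusted p under 0.05, 14 were higher and 3 lower, and DESeq2 called 5 higher and 0 lower. For these 3 genes the fall at 72 h was therefore measured from a naive level above that at 24 h. Markers of other cells differed between the naive groups as well: 4 of 9 smooth muscle and pericyte markers (median 0.72) and 4 of 8 endothelial markers (median 0.52) were higher at 72 h, and their part in these values was not tested.

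Proteins that bind, anchor or traffic potassium channels were followed as a list of 35 genes, 32 of them tested. At 24 h 5 were higher and 4 lower, and at 72 h 4 were higher and 18 lower, with a median log2 fold change of −0.04 and −0.24. Against 10.7% higher and 8.31% lower among all tested genes at 24 h, and 14.4% and 13.5% at 72 h, the count lower at 72 h is the one far from the background. The Kv4 partners Dpp10 and Dpp6 fell at 72 h by 0.82 (SE 0.08) and 0.50 (SE 0.05), next to the falls of Kcnd1, Kcnd3 and the KChIPs. All 3 Amigo genes, whose products join Kv2 channels, fell at 72 h, and Amigo3, at −0.89 (SE 0.09), had already fallen by 0.81 (SE 0.09) at 24 h. The other Kv2 partners of the list, Vapa and Vapb, were not called lower. Abcc8, the sulphonylurea receptor that pairs with Kir6.2, fell by 0.79 (SE 0.13) at 72 h, as Kcnj11 did.

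Of the genes of this list linked to the clustering of Kv1 channels along axons, Lgi3 fell by 0.94 (SE 0.09), Dlg4 by 0.54 (SE 0.07), Cntnap1 by 0.51 (SE 0.06) and Cntnap2 by 0.42 (SE 0.05) at 72 h. Cntn2 rose by 0.21 (SE 0.06) at 24 h and was at 0.15 (SE 0.06) at 72 h, and Adam23 (−0.08, SE 0.05) and Dlg1 (−0.22, SE 0.14) were not called at 72 h. Ank3 (ankyrin-G), which anchors Kv7 channels at the axon initial segment, rose by 0.46 (SE 0.06), beside the rise of Kcnq3, and Dlg2 rose by 0.52 (SE 0.07). Of the Kv2 partners, Vapa rose by 0.39 (SE 0.06) at 72 h, and Vapb was at −0.08 (SE 0.04), not called. Of 8 genes reported to regulate potassium channel genes in injured sensory neurons, none was called at 24 h by edgeR, with adjusted p from 0.111 to 0.907. At 72 h 1 of the 8, Dnmt3a (a DNA methyltransferase), fell by 0.45 (SE 0.08) and 1, Hdac2 (a histone deacetylase), rose by 0.26 (SE 0.05). Of all tested genes, 13.5% were lower and 14.4% higher at 72 h, so these counts lie near the background. Rest was at 0.21 (SE 0.12) at 24 h and 0.10 (SE 0.12) at 72 h, not called.

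Markers of the cells in the ganglia were read beside these results. Of all tested genes, 14.4% were higher and 13.5% lower at 72 h, and 10.7% and 8.31% at 24 h. Of 15 neuronal markers, 4 were higher and 6 lower at 72 h, with a median log2 fold change of −0.03. Stmn2 (0.89, SE 0.06) and Tubb3 (0.62, SE 0.08) were among the 4, and Rbfox3 (−0.60, SE 0.07) and Snap25 (−0.38, SE 0.05) among the 6. The summed level of the 15 was 19225 to 21192 CPM in naive and 21624 to 22992 CPM in injured libraries. This sum adds markers that moved in both directions and is not a count of neurons. Of 9 nociceptor markers, 8 were lower and 1 higher at 72 h (median −0.65), with 3311 to 3940 CPM in naive and 2249 to 2675 CPM in injured libraries. Of 7 markers of large-fibre neurons, 4 were lower and 2 higher (median −0.25), with 4727 to 5048 CPM against 4094 to 4727 CPM. Satellite glia had 1 of 10 markers higher and none lower, with 2936 to 4221 CPM against 3536 to 3824 CPM. Macrophage markers rose in 6 of 10 cases (42.5 to 118 CPM against 73.5 to 113 CPM), and 7 of 8 neutrophil markers fell (108 to 418 CPM against 39.8 to 151 CPM). At 24 h, 5 of 15 neuronal markers were lower and 3 higher, with 21003 to 24414 CPM in naive and 19552 to 23126 CPM in injured libraries, and 2 of 9 nociceptor markers were lower, with 3025 to 3483 CPM against 2855 to 3193 CPM. Summed levels of both lists overlapped between the groups at 24 h, while at 72 h the neuronal sum was higher and the nociceptor sum lower in every injured library. The part of either in the falls of potassium channel genes was not tested.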

How the data were processed

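Counts are the authors' deposited read counts per gene, not scaled; per the submitters' processing notes, bcl2fastq 2.17, STAR and HTSeq were used with GRCm38 (mm10). The strand setting and annotation are not given in the sources used here. The gene table has 48795 genes, of which 48349 matched a symbol. Totals ranged from 32758978 to 56484541 counts per library. Columns whose names lack a time were taken as 72 h by elimination. No pair of libraries in a group looked like duplicates (chi-square per degree of freedom at least 9.79).

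All 16 libraries entered 1 edgeR 4.0.16 quasi-likelihood fit in R 4.3.3 (TMM, filterByExpr with minimum count 10 and minimum total 15, group as the only term), with Benjamini-Hochberg adjustment over 19151 genes at 0.05. SE is the absolute log2 fold change over the square root of F. The fit was tested on simulated data. DESeq2 1.42.0 was an alternative. Exon lengths, gene coordinates and overlaps are from GENCODE (GRCm38). Counting intervals are 95% and leave out all but counting error (no molecular identifiers were used to separate PCR copies). No label ties a library to an animal, so p-values measure the spread between these samples.

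Members, gene lists and tests were chosen with earlier results of these data known. Values in every library are given by this rule, which 30 members meet: the 10 smallest p among those called at each injury time, 6 for the difference, 3 for naive ganglia, and the highest CPM per kb in each subfamily; other members are given by fold change, and some with counts were chosen after their values were seen. Not every gene chosen this way is reported here. The second deposited table, of repeat windows, was not used.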

Additional observations from a re-analysis of the deposited data

Results flagged for a closer look

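A library lay apart from the other 3 of its group in 9 of the 120 groups examined (30 members in 4 groups), where chance gives about 1 in 20 groups. Kcna1 was at 178 CPM in injured 24 h replicate 3, below the others (203 to 208). Kcna2 was at 351 CPM in naive 72 h replicate 3 and Kcnq3 at 30.7 CPM in the same library, both above the others. Kcnh7 was at 292 CPM in naive 72 h replicate 2 and at 149 CPM in injured 72 h replicate 4, and Kcnv1 was at 63.6 CPM in that injured library, all above the others. Kcns3 was at 68.9 CPM in naive 24 h replicate 1, below the others. Kcnt1 was at 111 CPM in injured 72 h replicate 1, above the others, and Kcnrg was at 0.212 CPM in naive 24 h replicate 2, where the other 3 libraries had 0.

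The response to injury differed between 72 h and 24 h for 17 members by the edgeR test of the difference itself. Among them, the 72 h minus 24 h differences in log2 fold change were −0.78 for Kcng3, −0.72 for Kcna2, −0.70 for Kcnmb1, −0.65 for Kcnb2 and −0.65 for Kcnh7. They were −0.52 for Kcna1, −0.43 for Kcnt1, −0.41 for Kcnd1, −0.38 for Kcnip3, −0.38 for Kcnc4, −0.37 for Kcnab1, −0.35 for Kcnab2 and −0.30 for Kcnd3. For Kcnk16 the difference was 3.83.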

How the results depend on the processing

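No called log2 fold change of a member changed sign under any alternative run, and all but 1 of 48 calls at 72 h held under each. The counts of members called at 24 h ranged from 5 to 10 higher and 21 to 27 lower over fits leaving out 1 library, and at 72 h from 6 to 7 and 42 to 44. The difference ranged from 0 to 1 higher and 13 to 19 lower, the 0 being without naive 24 h replicate 4, and naive ganglia from 0 to 4 higher and 0 to 0 lower. Partner genes ranged from 2 to 6 higher and 4 to 5 lower at 24 h, 3 to 4 and 17 to 18 at 72 h, 0 to 0 and 7 to 10 for the difference, and 1 to 1 and 0 to 3 in naive ganglia. With only the 8 libraries compared, 4 members and 2 partner genes were higher at 24 h. In naive ganglia, members higher at 72 h were 5 by DESeq2 and 6 when low counts were not filtered, members lower were 3 without that filter, and partner genes were 2 higher and 2 lower under both alternatives. The causes were not tested. Depth limits the 23 tested members under 1 CPM per kb.

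With the replicate number within each time as a block, 10 members were higher and 30 lower at 24 h, 7 and 47 at 72 h, and 1 and 20 for the difference, and partner genes were 7 lower at 24 h and 1 higher for the difference. Same-numbered injured and naive libraries correlated in their deviations from group means at 0.047 to 0.101, other pairs at −0.109 to 0.077, and 15 of 16 libraries matched their own number best, a hint from the data and not the design.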
